A study of Mus musculus with 2 samples.

Results

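The Mir181 family comprises 6 microRNA genes in 3 clusters, and the members are all gene rows whose GENCODE M21 symbol is Mir181a-1, Mir181b-1, Mir181a-2, Mir181b-2, Mir181c or Mir181d. All 6 symbols were found among 2202 microRNA genes. The libraries were small RNA (under 30 nt) made from total RNA of a calf muscle, the gastrocnemius. The donors were B6CASTF1/J females, hybrids of C57BL/6J and CAST/EiJ, at an age of 14 days. There was 1 group of 2 biological replicates and no second tissue, age, genotype or treatment, so levels were described and no conditions were compared. The biosample name of replicate 1 mentions 3 females, both replicates carry the same donor identifier, and nothing in the labels says how animals were pooled. The SD between the replicates therefore measures only the spread between these 2 samples, which may be partly technical.

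A microRNA gene is transcribed into a hairpin, from which Drosha and Dicer cut a short duplex. A strand from the 5′ arm (5p) or the 3′ arm (3p) is loaded into an Argonaute protein and pairs with target mRNAs mainly through its seed, bases 2 to 8. The miR-181 microRNAs are known for setting the sensitivity of the T-cell receptor in developing thymocytes and for roles in B-cell differentiation. In skeletal muscle miR-181 rises as myoblasts differentiate and represses the homeobox gene Hoxa11, miR-181b restrains inflammatory signalling in endothelial cells, and miR-181c has been described in heart mitochondria.

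The 5p strands are shown because the seed defines the family and because they separate the genes that can be counted by their main strand from those that cannot. They were read from RefSeq (GRCm38.p6), in which all 6 members were matched, and the capitals mark the seed.
miR-181a-5p: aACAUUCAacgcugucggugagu
miR-181b-5p: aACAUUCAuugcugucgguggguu
miR-181c-5p: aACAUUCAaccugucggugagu
miR-181d-5p: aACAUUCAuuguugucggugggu
All 4 strands share the seed ACAUUCA, and no mature strand of a gene outside the family has it among the 1738 in that table. Of the 2202 microRNA genes, 1018 have a strand of the same symbol there, so the search did not cover every gene. Mir181a-1 and Mir181a-2 encode the same miR-181a-5p, and Mir181b-1 and Mir181b-2 encode the same miR-181b-5p. With positions counted from the 5′ end, miR-181d-5p differs from miR-181b-5p by C12U and by lacking the last base. miR-181b-5p differs from miR-181a-5p by A9U, C10U and A21G, and by its additional last base. miR-181c-5p stands at an edit distance of 1 from miR-181a-5p.

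The 3p strands are shown because each of the 6 genes has its own, so that a 3p read can be placed even where the 5p strand has an identical copy.
miR-181a-1-3p: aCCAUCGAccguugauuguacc
miR-181a-2-3p: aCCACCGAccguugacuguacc
miR-181c-3p: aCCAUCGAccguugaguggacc
miR-181b-1-3p: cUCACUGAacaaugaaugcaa
miR-181b-2-3p: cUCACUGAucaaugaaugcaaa
miR-181d-3p: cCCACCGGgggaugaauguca
The 6 strands carry 4 seeds. The 3p strands of Mir181a-1 and Mir181c share CCAUCGA, those of Mir181b-1 and Mir181b-2 share UCACUGA, and those of Mir181a-2 and Mir181d have CCACCGA and CCACCGG. miR-181a-2-3p differs from miR-181a-1-3p by U5C and U16C, of which the first lies in the seed. None of the 4 seeds occurs in a mature strand of a gene outside the family in that table, which does not cover every gene.

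The clusters lie on chromosomes 1, 2 and 8 (mm10 coordinates, GENCODE M21). Mir181a-1 (chr1:137966455-137966541, plus strand) and Mir181b-1 (chr1:137966639-137966718) are 97 bp apart in an intron of the long noncoding gene Gm4258. All 80 nt of Mir181b-1 and 11 nt of Mir181a-1 also overlap an exon of A430106G13Rik, a long noncoding gene on the same strand. Both genes lie opposite an intron of the long noncoding gene Gm26936. Mir181a-2 (chr2:38852735-38852810, plus strand) and Mir181b-2 (chr2:38853830-38853918) are 1019 bp apart, opposite an intron of Nr6a1, a nuclear receptor gene of the germ line. The annotated antisense gene Nr6a1os ends 364 bp before Mir181a-2 on the same strand. All 89 nt of Mir181b-2 also lie opposite an exon of the annotated gene Gm44144. Mir181d (chr8:84178716-84178787, minus strand) and Mir181c (chr8:84178873-84178961) are 85 bp apart in an intron of Nanos3, a regulator of germ cells.

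Replicate 1 held 2672454 reads assigned to microRNA genes on their own strand and replicate 2 held 4292012. Levels are CPM, counts per 1000000 of these assigned reads, and intervals are exact 95% intervals that cover counting error only. A microRNA read spans a mature strand whatever the length of its hairpin, so CPM was not divided by length. Reads that aligned to several places, 52.7% and 52.4% of the libraries, entered no gene and no total. Both arms of a hairpin add to 1 count, so 5p and 3p reads cannot be told apart. The muscle microRNA Mir206 stood at 95105 and 84695 CPM. Of 9 listed muscle genes, 8 reached 1 CPM in both replicates, as did 16.7% of all microRNA genes. Other listed muscle genes were far lower in these placed reads. Mir1a-2 had 245 and 170 CPM, Mir1a-1 7.86 and 8.62, Mir133a-1 3.37 and 2.80, and Mir133a-2 0.748 and 2.10.

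More of the reads assigned to the Mir181 family came from the Mir181c and Mir181d cluster than from both other clusters together. Together the 6 genes had 5321 reads in replicate 1 and 7442 in replicate 2, or 1991 CPM (95% interval 1938 to 2045) and 1734 CPM (1695 to 1774). This was 0.186% ± 0.0182 (SD, n = 2) of assigned reads. All 6 reached 1 CPM in both replicates, as did 16.7% of all microRNA genes, and 5 of 6 reached 10 CPM in both, as did 11.6%. A mean of 100 CPM was reached by 4 members and by 7.99% of all genes. For every assigned read there were 1.58 and 1.48 multiply aligned ones, so the share of the family among all microRNA reads is not given by these counts. The cluster shares are likewise of placed reads only. The 5p strands of Mir181c and Mir181d each occur in 1 hairpin, and those of the other 4 genes in 2. The shares therefore do not compare the output of the clusters.

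Mir181c and Mir181d, the cluster in Nanos3, had nearly equal levels. Mir181c had 1407 reads (526 CPM) in replicate 1 and 2023 (471 CPM) in replicate 2. Mir181d had 1410 reads (528 CPM) in replicate 1 and 2088 (486 CPM) in replicate 2. In replicate 1 the ratio of Mir181d to Mir181c was 1.00 (95% interval 0.930 to 1.08). In replicate 2 it was 1.03 (0.970 to 1.10), and both intervals held 1. The means were 499 ± 39.0 CPM and 507 ± 29.1 CPM, ranks 107 and 105 of 2202. The cluster held 52.9% of the family's reads in replicate 1 and 55.2% in replicate 2.

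Mir181b-2, on chromosome 2, had the highest mean of the 6 but also the widest spread. It had 1921 reads (719 CPM) in replicate 1 and 2037 (475 CPM) in replicate 2, a mean of 597 ± 173 CPM at rank 95. In replicate 1 it exceeded Mir181d 1.36-fold (1.27 to 1.46), and in replicate 2 the ratio was 0.976 (0.917 to 1.04). Its lead over Mir181d and Mir181c was thus seen in replicate 1 and did not exceed the spread between the replicates. Its neighbour Mir181a-2 had 136 reads (50.9 CPM) and 258 reads (60.1 CPM), a mean of 55.5 ± 6.52 CPM. The cluster held 38.7% and 30.8% of the family's reads.

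The chromosome 1 cluster was led by the other copy of miR-181a. Mir181a-1 had 440 reads (165 CPM) in replicate 1 and 1017 (237 CPM) in replicate 2, a mean of 201 ± 51.1 CPM at rank 139. Mir181b-1 had 7 reads (2.62 CPM, 95% interval 1.05 to 5.40) and 19 reads (4.43 CPM, 2.67 to 6.91). The cluster held 8.40% and 13.9% of the family's reads. In descending order of mean, the levels ran Mir181b-2, Mir181d, Mir181c, Mir181a-1, Mir181a-2 and Mir181b-1. The first 3 did not differ beyond the spread between replicates, and each step below them did. Per base of hairpin the first 2 changed places, with Mir181d at 7.04 ± 0.404 and Mir181b-2 at 6.70 ± 1.94 CPM per base.

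**Figure D1:**
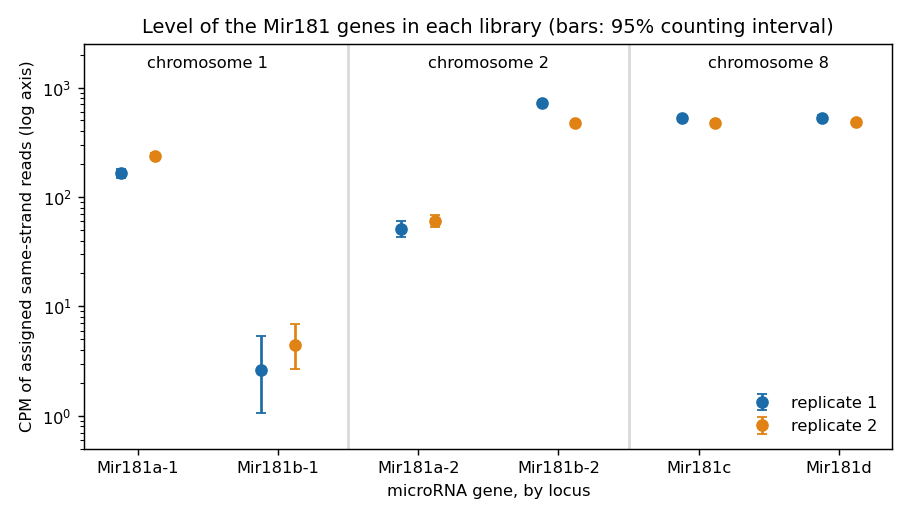
Level of each Mir181 gene in the 2 libraries, in CPM of assigned same-strand reads on a log axis, with bars for the exact 95% counting interval. Mir181b-2, Mir181c and Mir181d sat between 471 and 719 CPM, and Mir181b-1 stayed below 5 CPM in both libraries.

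In reads placed at 1 gene, the partners of each cluster were unequal in opposite senses on chromosomes 1 and 2. Mir181a-1 exceeded Mir181b-1 62.9-fold (30.3 to 157) in replicate 1 and 53.5-fold (34.1 to 89.3) in replicate 2. On chromosome 2 the miR-181b gene was the higher, and Mir181b-2 exceeded Mir181a-2 14.1-fold (11.9 to 16.9) in replicate 1 and 7.90-fold (6.93 to 9.02) in replicate 2. The chromosome 1 intervals overlap between the replicates and the chromosome 2 intervals do not. From its 5p start, a read needs 28 nt to be placed at a miR-181a gene and 25 nt at a miR-181b gene. The ratios therefore compare placed reads and do not give the relative output of the partners.

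These levels are of reads placed at 1 locus, and the sequence of the copies sets which reads those can be. Every stretch of 22 nt in each hairpin was searched on both strands of all 2202 hairpins, since no genome sequence was used. In Mir181c all 68 stretches and in Mir181d all 51 occurred in 1 hairpin. In Mir181a-1 59 of 66 and in Mir181a-2 48 of 55 did, and the remaining 7 in each were shared between them. In Mir181b-1 54 of 59 and in Mir181b-2 63 of 68 did, and the remaining 5 in each were shared between them. All shared stretches overlapped the 5p strand, and no 3p strand occurred in another hairpin.

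**Figure D2:**
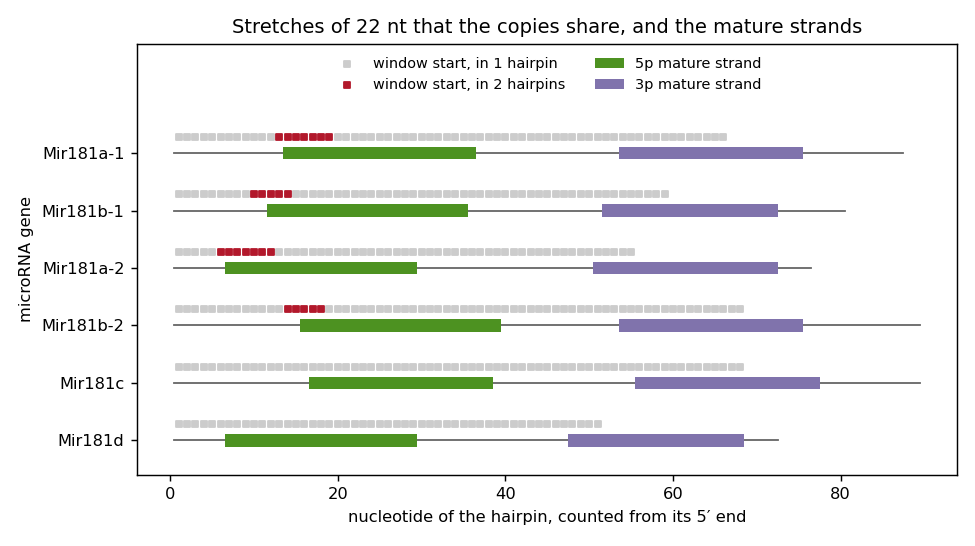
Each row is a hairpin drawn to scale in nucleotides from its 5′ end, with the mature strands as bars and the start of every 22-nt stretch as a square. Red squares, for stretches held by 2 hairpins, occur along the 5p strand in the miR-181a and miR-181b genes and not in Mir181c or Mir181d.

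The point at which a 5p read becomes unique differs between the 2 pairs of copies. The hairpins are shown from the first base of the 5p strand to 2 bases past the first difference between the copies, which is in capitals.
Mir181a-1: aacauucaacgcugucggugaguuuggAau
Mir181a-2: aacauucaacgcugucggugaguuuggGau
Mir181b-1: aacauucauugcugucgguggguuGaa
Mir181b-2: aacauucauugcugucgguggguuUga
The miR-181a copies share 28 nt and first differ at base 28 from the 5p start, 5 bases past the annotated end of the strand. The miR-181b copies share 26 nt and first differ at base 25, which is the first base past the annotated end. A read of the annotated miR-181a-5p or miR-181b-5p thus fits both of its genes, whereas stretches of 11 nt and 12 nt from the 5p start were enough to set Mir181c and Mir181d apart from all other hairpins. The read counts of the 4 copy genes leave out every 5p read that fits both copies, and the number left out was not measured. A miR-181b read of 25 nt from the 5p start is placed by its last base alone. Whether that base always came from the gene it matched was not tested. The order of levels given above therefore does not rank miR-181a or miR-181b against miR-181c and miR-181d.

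Among reads that could be placed, the 2 pairs of copies were split in different ways. Mir181a-1 took 76.4% (95% interval 72.7 to 79.8) of the reads placed at a miR-181a gene in replicate 1 and 79.8% (77.5 to 81.9) in replicate 2, a ratio to Mir181a-2 of 3.24 and 3.94. Mir181b-2 took 99.6% (99.3 to 99.9) of those placed at a miR-181b gene in replicate 1 and 99.1% (98.6 to 99.4) in replicate 2. Mir181b-2 exceeded Mir181b-1 by a factor of 274 (133 to 683) in replicate 1, and by a factor of 107 (68.5 to 178) in replicate 2. The higher copy lay on chromosome 1 for miR-181a and on chromosome 2 for miR-181b, in both replicates.

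The same split was measured in 13 other pairs of genes with an identical mature strand and a summed mean of 10 CPM or more, taken from 22 listed pairs. The mean share of the higher copy ranged from 66.2% to 100%, with a median of 78.1%. The miR-181a pair, at 78.1%, lay close to this median, with 7 of the 13 pairs more uneven. The miR-181b pair, at 99.4%, had 1 pair more uneven, Mir199a-1 and Mir199a-2, which had no more than 20.6 CPM in all and whose lower copy had no read. Of the 3 most abundant other pairs, Mirlet7f-2 took 95.8% and 95.7% of its pair's reads, Mir128-1 took 78.6% and 80.3%, and Mir92-1 took 97.7% and 97.0%. In 7 of the 13 pairs the copies first differed at the base directly past the shared strand, as in miR-181b. In 2 of the 13 they first differed 5 or more bases past it, as in miR-181a.

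**Figure D3:**
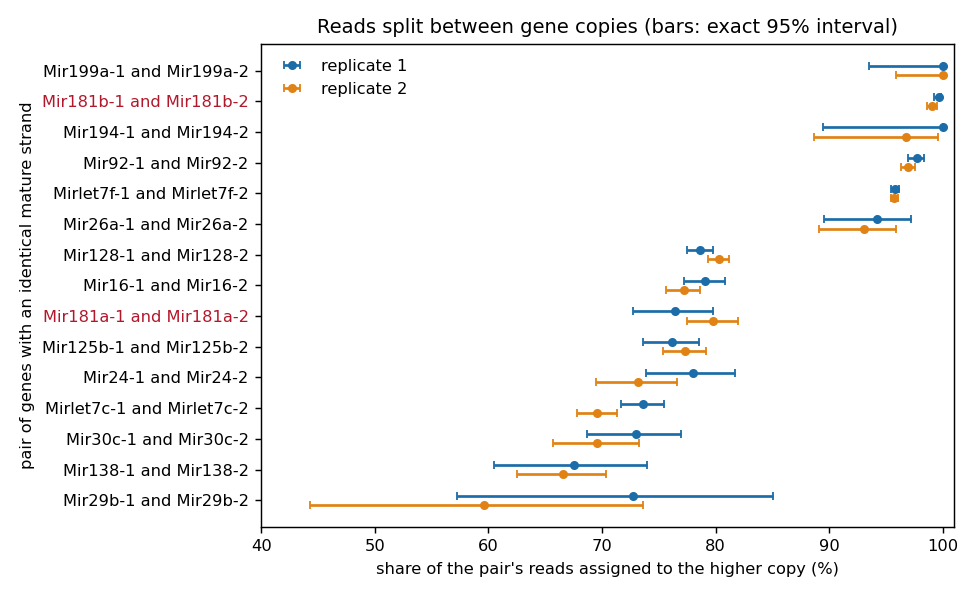
Share of reads assigned to the higher copy in 15 pairs of genes with an identical mature strand, per replicate, with exact 95% intervals on an axis that starts at 40%. The miR-181b pair sits above 99% in both replicates, and the miR-181a pair sits at 76.4% and 79.8%.

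Between the replicates the members did not move together. Mir181b-2 was 1.51-fold (1.42 to 1.61) higher in replicate 1, while Mir181a-1 was 1.44-fold (1.29 to 1.61) higher in replicate 2. Mir181c was higher in replicate 1 by a factor of 1.12 (1.04 to 1.20), and so was Mir181d by a factor of 1.08 (1.01 to 1.16). Mir181a-2 had a ratio of replicate 2 over replicate 1 of 1.18 (0.956 to 1.46) and Mir181b-1 of 1.69 (0.680 to 4.76), and both intervals held 1. Each ratio sets 1 library against another, so it says nothing of conditions and carries no p-value.

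These differences were read against the 260 microRNA genes whose mean reached 10 CPM, which included 5 members. The counting interval excluded 1 with the higher level in replicate 1 for 3 of the 5 members and for 25.8% of the 260 genes. It excluded 1 with the higher level in replicate 2 for 1 of the 5 and for 33.1% of the 260. Mir181b-2 was the only member past 1.5-fold towards replicate 1, as were 2.31% of the 260 genes, and no member at 10 CPM was past 1.5-fold towards replicate 2, as were 8.46%. The median distance between replicates was 1.13-fold, and 26 genes were farther apart than Mir181b-2, 32 than Mir181a-1, 104 than Mir181a-2, 147 than Mir181c and 176 than Mir181d.

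**Figure D4:**
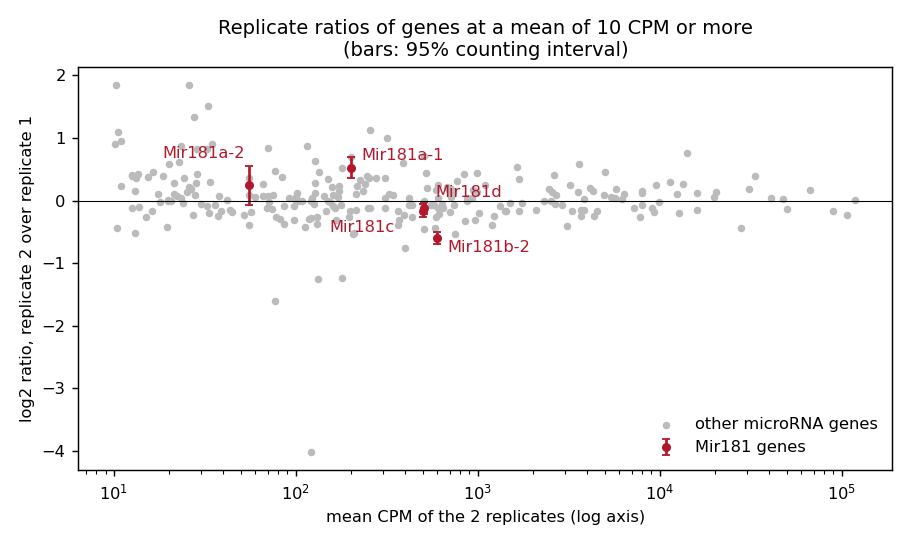
The log2 ratio of replicate 2 over replicate 1 against mean CPM (log axis) for the 260 genes at a mean of 10 CPM or more, with 5 Mir181 genes in red and bars for their 95% counting interval. Mir181a-1 lies at 0.53 and Mir181b-2 at -0.60, on opposite sides of 0.

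By cluster, the chromosome 1 genes together were 1.44-fold (1.29 to 1.62) higher in replicate 2, the chromosome 2 genes 1.44-fold (1.36 to 1.53) higher in replicate 1, and the chromosome 8 genes 1.10-fold (1.05 to 1.15) higher in replicate 1. Skeletal muscle genes went both ways. Of 6 at a mean of 10 CPM, 3 (Mir206, Mir1a-2 and Mir486) were higher in replicate 1, as were 25.8% of the 260 genes. Another 2 (Mir499 and Mir208b) were higher in replicate 2, as were 33.1%, each with a counting interval that excluded 1. Some marker lists of other cell types moved in the same direction as Mir181b-2. Of 6 leukocyte genes, 4 (Mir142, Mir150, Mir155 and Mir146) were higher in replicate 1 with a counting interval that excluded 1, as were 25.8% of the 260 genes. The intervals of Mir223 and Mir342 held 1, none of the 6 was at 0, and the summed level was 2729 CPM in replicate 1 and 2220 CPM in replicate 2. Both erythroid genes were higher in replicate 1 (437 and 185 CPM summed), as was the hepatocyte gene Mir122 (229 and 14.2 CPM). Of 2 endothelial genes, Mir126a differed little (118724 and 119268 CPM), and Mir126b had only 2 reads and 1 read. Of the 9 neural genes, 5 had no read in either library (Mir124a-1, Mir124a-2, Mir124a-3, Mir9-1 and Mir9-2). Mir9-1 and Mir9-2 have an identical mature strand, whose reads fit both and enter neither, so their 0 does not show absence. Shared strands were not examined for the Mir124a genes, so the 0 of those genes does not show absence either. In replicate 2, 3 neural genes (Mir137, Mir138-1 and Mir138-2) were higher with a counting interval that excluded 1, as were 33.1% of the 260 genes. Mir9-3 had 0 and 4 reads. The summed level of the neural genes was 92.1 and 185 CPM. The part of these cell types in the Mir181 levels was not tested, and in whole tissue fewer cells of a type and less RNA per cell cannot be told apart.

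The members were also compared as neighbours. There were 71 neighbouring pairs on the same strand within 2000 bp with a mean of 10 CPM or more in each gene, of which 34 lay on chromosome 12. Mir181d and Mir181c were the nearest in level of all 71, with a log2 level ratio of 0.02 against a median of 2.21. Their log2 replicate ratios differed by 0.04, and 64 pairs differed more. Mir181a-2 and Mir181b-2 were 3.43 apart in level, with 50 pairs nearer. In some pairs, such as this one and Mir27b with Mir24-1 (6.85 apart), a gene has a strand with an identical copy elsewhere. The distances and their median are therefore of placed reads. For Mir181a-2 and Mir181b-2, the comparison between replicates was as follows. Their log2 replicate ratios differed by 0.84 against a median of 0.23, with 3 pairs farther apart, and their point estimates lay on opposite sides of 0, as in 25 of the 71 pairs. Mir181a-1 and Mir181b-1 were not among the pairs because Mir181b-1 was below 10 CPM.

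**Figure D5:**
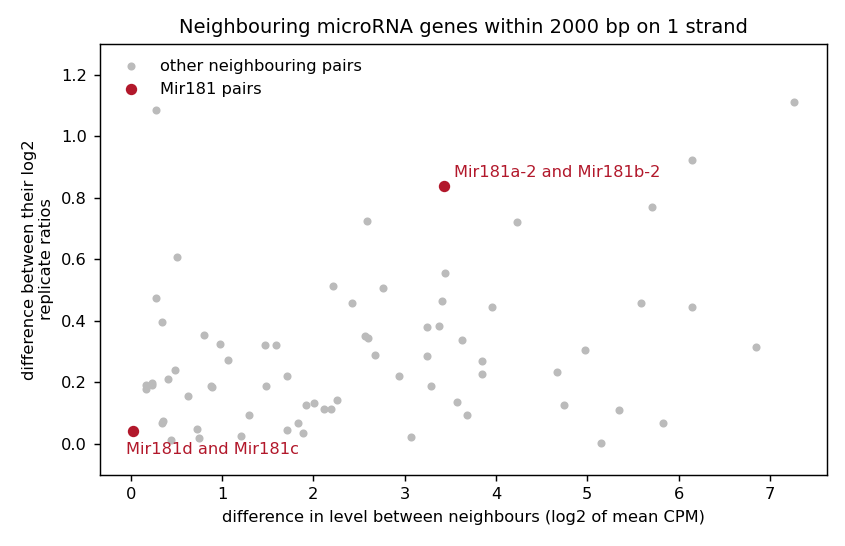
Each point is a pair of neighbouring microRNA genes, with the difference in log2 level on the horizontal axis and the difference between their log2 replicate ratios on the vertical axis. Mir181d with Mir181c lies at the lower left (0.02 and 0.04), and Mir181a-2 with Mir181b-2 lies towards the top (3.43 and 0.84).

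The genes nearest in level to each member, by distance on log2(CPM + 1) over the 2 libraries, were named by a fixed rule. Mir181c and Mir181d were each other's nearest gene, at a distance of 0.05. The nearest to Mir181b-2 was Mir146, a brake on inflammatory signalling (669 and 494 CPM, distance 0.12). The nearest to Mir181a-1 was Mir667 (153 and 250 CPM, distance 0.13), and the nearest to Mir181a-2 was Mir669o (48.3 and 62.2 CPM, distance 0.09). With 2 libraries this likeness describes levels alone.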

How the data were processed

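The deposited files give unnormalized read counts for each microRNA gene, made on mm10 with GENCODE M21, per the file headers and accompanying text. No aligner or counter is named (not given in the sources used here). Each file has 3 count columns (either strand, same strand, opposite strand, read from their order) and 4 summary lines that name no gene, which held 66.6% and 64.6% of reads and stayed out of all totals. The same-strand column was used. A count of 0 allows up to 1.12 CPM in replicate 1 and 0.699 CPM in replicate 2 (3 reads), and 1 read was worth 0.374 and 0.233 CPM. No opposite-strand read fell on a member.

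Shares have Clopper-Pearson intervals and ratios exact conditional binomial intervals, with a method tested on simulated data. The simulated counts held counting error only, so that test does not cover the wider spread between these libraries. The libraries were not 1 library deposited again (chi-square of 144 per degree of freedom over 260 genes). The labels give 1 group, so no test between groups was made. The members and lists were chosen with earlier results of these data known. The rule for named genes took all members, the gene nearest in level to each member at 10 CPM, the 3 most abundant of the listed copy pairs, and listed cell type markers. Of the 22 listed pairs, 1 had no gene of that name, 4 had no identical strand in the RefSeq table and 4 had a sum below 10 CPM. Of the 4 without an identical strand in that table, only Mir101a and Mir101b had been listed as not identical. The others were the Mirlet7a, Mir133a and Mir1a pairs. The table does not cover every gene, so its lack of an identical strand does not show that these copies differ. The higher copies of the Mirlet7a, Mir133a and Mir1a pairs took a mean of 63.0%, 69.5% and 96.0%, against 66.2% to 100% in the 13 pairs used. Alternatives covered the strand column, the denominator, edgeR 4.0.16 TMM factors and DESeq2 1.42.0 size factors (R 4.3.3), thresholds, stretch lengths and each replicate alone. Python 3.11.15 with scipy 1.17.1 was used.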

Additional observations from a re-analysis of the deposited data

How the results depend on the processing

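The family's share of 0.186% depends on the denominator. It was 0.251% with the unstranded column, which assigns fewer reads in all, 0.483% without the 10 most abundant genes in the total and 0.0736% with multiply aligned reads in the total, and it ranged from 0.173% to 0.199% with each replicate alone. Divided by hairpin length, an alternative added after the data were seen, the share of Mir181c and Mir181d within the family was 56.4% in place of 54.1%. The other scalings move every log2 replicate ratio by 1 constant (-0.03 with TMM, -0.02 with DESeq2 factors, -0.03 with the unstranded column and -0.06 without the 10 most abundant genes). These shifts are too small to change a direction or call here, so they say nothing of the stability of single members. For the copy genes the number of stretches found in 1 hairpin is the same at 18, 20, 22 and 24 nt by construction. The number shared between copies was 11, 9, 7 and 5 at these lengths for miR-181a, and 9, 7, 5 and 3 for miR-181b. At 5 CPM or 10 CPM in both replicates 5 members remained, without Mir181b-1. Its 7 and 19 reads limit every ratio that involves it. No paired analysis was possible because there was 1 group.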

Other observations

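The Mir30 family, which also has 6 genes in 3 clusters with 1 shared mature copy, and the Mir23, Mir27 and Mir24 genes, with 6 genes in 2 clusters, were set beside Mir181. They were chosen for their layout after the Mir181 values were seen. All levels and shares here are of placed reads, and strands with identical copies lose reads to an unequal extent in these sets. Among the listed pairs these were Mir30c-1 with Mir30c-2 and Mir24-1 with Mir24-2, against the miR-181a and miR-181b pairs. The values therefore do not compare the output of the families or clusters. The Mir30 genes together stood at 22365 and 19839 CPM in replicates 1 and 2, against 1991 and 1734 CPM for Mir181. The Mir30b and Mir30d cluster held 45.4% and 50.1% of the Mir30 reads, Mir30a and Mir30c-2 38.6% and 36.3%, and Mir30e and Mir30c-1 16.0% and 13.6%. The Mir23, Mir27 and Mir24 genes had 74701 and 79038 CPM, with 60.4% and 57.9% from the Mir23b cluster. The shares of the 3 clusters of Mir30 therefore shifted by up to 4.75 percentage points between replicates, and those of Mir181 by up to 7.82, both descriptions of these 2 libraries.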
